A study of Mus musculus with 9 samples.

Results

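The genes described here are 10 genes used to follow skeletal progenitors of the periosteum and the platelet-derived growth factor (PDGF) system in fracture callus: the transcription factor genes Prrx1, Twist1 and Twist2, the surface marker genes Lepr and Ly6a, the receptor genes Pdgfra and Pdgfrb, and the ligand genes Pdgfa, Pdgfb and Pdgfc. They were chosen by name, and each of the 10 was found once among the 22054 genes of the deposited table. Expression was measured by RNA-seq in 9 libraries of femoral callus from male C57BL/6J mice aged 7 weeks per the labels, 3 libraries per group. All mice carried a femoral fracture with a needle in the marrow cavity, and treatment started the day after surgery, with 200 μl injected into the peritoneum every day of the week that followed. The H-151 group received 750 nmol of H-151, a covalent inhibitor of the innate immune adaptor STING. The SR-717 group received 30 mg/kg of SR-717, a STING agonist, and the PBS group received PBS buffer as a control. The solvent of the injected drugs is not given in the sources used here. The comparisons of the 2 drugs with each other and with PBS ask whether the callus differed in these genes when STING was inhibited or activated. The labels give the tissue as bone, and their extraction text speaks of cell lines, whereas the study describes callus. They call the libraries of a group replicate biosamples without saying whether animals were pooled, so p-values measure only the spread between these libraries.

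The periosteum, the membrane on the outer surface of bone, holds progenitor cells that proliferate after a fracture and give rise to the cartilage and bone of the callus. PRRX1 and the TWIST proteins are transcription factors of limb and skeletal mesenchyme, while PDGFRα, the leptin receptor and the LY6A protein (Sca-1) are surface markers used to sort mesenchymal stromal cells. PDGF ligands are dimers released by platelets, endothelial cells, macrophages and stromal cells, and they signal through 2 receptor tyrosine kinases: PDGF-AA and PDGF-CC mainly bind PDGFRα, and PDGF-BB binds both PDGFRα and PDGFRβ, the latter also found on pericytes.

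The libraries held between 16987400 and 23272500 expected counts. The osteoblast and chondrocyte marker lists, 10 genes each, had no gene at 0 in any library, and neither did the skeletal muscle list. SR-717 replicate 1 stood apart on the first principal component of log2 CPM (read counts scaled to library size), at 100.6 against a median of -21.9, and PBS replicate 3 stood apart on the second, at -67.4 against -22.0 for the next library. The mean log2 CPM of the chondrocyte list was 4.04 in SR-717 replicate 1 and 6.19 to 8.84 in the others, and that of the neutrophil list was 9.29 there and 4.60 in PBS replicate 3, with 5.63 to 7.53 elsewhere.

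By the GENCODE annotation of GRCm38, Prrx1 lies on chromosome 1 (chr1:163245119-163313710, minus strand), as does Twist2 (chr1:91801461-91848028, plus strand). Twist1 is at chr12:33957671-33959829 and Lepr at chr4:101717404-101815352, both on the plus strand. Ly6a and Pdgfb share chromosome 15 on the minus strand, at chr15:74994877-74998031 and chr15:79995874-80014977. Pdgfra (chr5:75152292-75198215, plus strand) and Pdgfa (chr5:138976014-138997370, minus strand) share chromosome 5. Pdgfc is at chr3:81036416-81214040 on the plus strand. Annotated antisense genes share exon bases with Twist2 (Gm29100, 1477 bases), Pdgfra (Gm42802, 456 bases), Pdgfa (6330403L08Rik, 813 bases) and Pdgfc (Gm16000, 147 bases). How the counting treated strand is not given in the sources used here, so reads from these stretches are uncertain.

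Upstream sequences of 5 of these genes are shown because their genes gave the contrasts described below. Prrx1 was, of the 10, the nearest to Pdgfra in profile over the libraries, though Pdgfa was nearer to Prrx1. Lepr and Pdgfc were both highest in PBS replicate 3, and Twist1 was lowest in SR-717 replicate 1. The sequences are RefSeq promoter windows of GRCm38.p6, read on the strand of the gene and ended before the first annotated exon base. They cover chr1:163313711-163313900 (minus strand) for Prrx1, chr12:33957421-33957670 (plus) for Twist1, chr4:101717157-101717403 (plus) for Lepr, chr5:75152001-75152250 (plus) for Pdgfra and chr3:81036166-81036415 (plus) for Pdgfc. Capitals mark matches, on either strand, to the GC box GGGCGG, the TATA box TATAAA, the CCAAT box and the E box CANNTG, the last being the element that TWIST proteins bind.
Prrx1: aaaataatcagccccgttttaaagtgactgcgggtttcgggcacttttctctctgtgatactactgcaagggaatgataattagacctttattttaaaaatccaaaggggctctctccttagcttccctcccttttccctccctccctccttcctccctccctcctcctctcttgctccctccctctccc
Twist1: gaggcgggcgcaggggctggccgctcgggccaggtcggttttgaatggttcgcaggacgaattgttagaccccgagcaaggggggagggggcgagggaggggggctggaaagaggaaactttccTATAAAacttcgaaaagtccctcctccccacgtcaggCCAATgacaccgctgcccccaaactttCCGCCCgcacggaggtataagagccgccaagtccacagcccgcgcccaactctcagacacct
Lepr: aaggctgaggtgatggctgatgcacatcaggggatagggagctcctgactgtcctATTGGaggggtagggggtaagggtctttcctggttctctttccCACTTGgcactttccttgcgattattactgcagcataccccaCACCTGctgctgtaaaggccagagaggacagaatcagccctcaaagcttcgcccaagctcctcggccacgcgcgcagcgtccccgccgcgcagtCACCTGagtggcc
Pdgfra: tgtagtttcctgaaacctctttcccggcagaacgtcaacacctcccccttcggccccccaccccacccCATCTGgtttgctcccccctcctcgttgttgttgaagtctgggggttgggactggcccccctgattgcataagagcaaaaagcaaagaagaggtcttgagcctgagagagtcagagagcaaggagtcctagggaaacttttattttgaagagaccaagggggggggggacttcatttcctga
Pdgfc: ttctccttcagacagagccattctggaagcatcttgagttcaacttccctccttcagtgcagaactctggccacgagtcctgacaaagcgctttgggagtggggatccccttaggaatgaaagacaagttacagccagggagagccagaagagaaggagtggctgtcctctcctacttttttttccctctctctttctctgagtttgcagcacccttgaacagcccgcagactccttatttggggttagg
The Twist1 sequence held 1 GC box, 1 TATA box and 1 CCAAT box and no E box. Lepr held 1 CCAAT box and 3 E boxes, at positions 99, 141 and 235 counted from the first base shown, and Pdgfra held 1 E box at position 69. The Prrx1 and Pdgfc sequences, which contained 48.9% and 50.8% G and C against 62.4% for Twist1, held none of the 4 motifs. Among 32851 windows of 250 bases before a RefSeq start, 66.2% held an E box, 33.8% a CCAAT box, 32.7% a GC box and 12.4% a TATA box, so a match describes the sequence and is not evidence of binding. RefSeq windows were matched for 7 of the 10 genes.

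All 10 genes were detected in every library. On the TPM scale, which is adjusted for transcript length and allows levels of different genes to be compared, Ly6a was the highest, at 341 ± 125 TPM (mean ± SD over 9 libraries), and ranked 392 among the 22054 genes. Pdgfrb followed at 90.1 ± 10.4 TPM and Pdgfb at 52.8 ± 9.95 TPM. Each of these steps held in all 9 libraries.

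Pdgfra (36.5 ± 7.01 TPM) and Prrx1 (35.7 ± 7.92 TPM) could not be ranked against each other, since Pdgfra was higher in 6 of 9 libraries. Nor could Pdgfa (30.1 ± 6.15 TPM) and Twist1 (29.2 ± 6.25 TPM), with Pdgfa higher in 5 of 9. Below them, Pdgfc reached 22.4 ± 9.47 TPM, Lepr 8.78 ± 7.87 TPM and Twist2 3.41 ± 1.52 TPM. Lepr was above Twist2, the lowest of the 10, in 8 of 9 libraries.

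**Figure D1:**
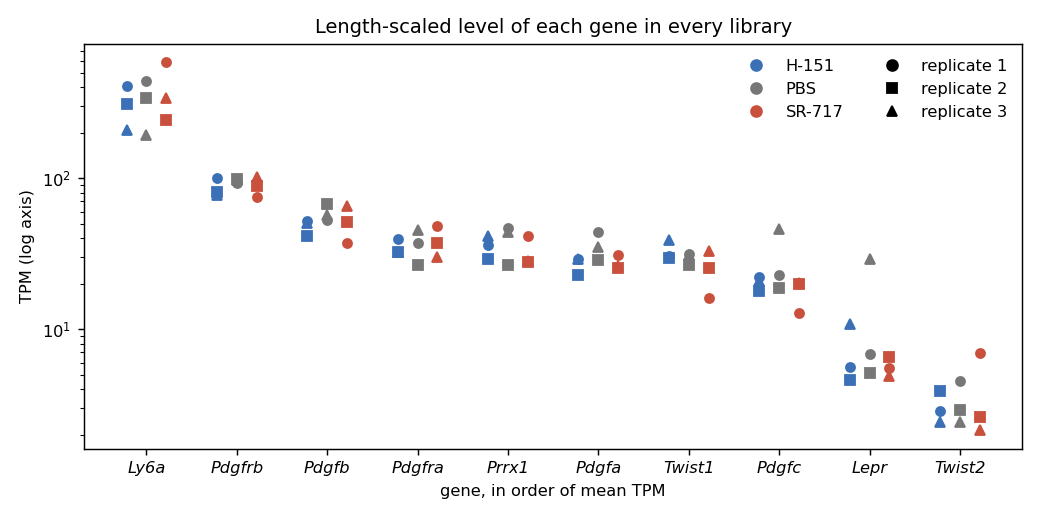
TPM (log axis) of the 10 genes in each of the 9 libraries, ordered by mean TPM, with colors for the groups and symbols for the replicate numbers. Pdgfrb spans 75.0 to 101 TPM, while Lepr spans 4.58 to 29.2 TPM because of a single PBS library.

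No difference between groups passed the test for any of the 10 genes. All 10 passed the filter on low counts in each comparison, and 0 of 10 were called by edgeR's quasi-likelihood test at an adjusted p under 0.05, or at an unadjusted p under 0.05 with a change of at least 1.5-fold. The same adjusted threshold called 0 of 14151 genes (0%) between SR-717 and H-151, 0 of 14070 (0%) between SR-717 and PBS and 0 of 14085 (0%) between H-151 and PBS. At an unadjusted p under 0.05, edgeR gave 146 genes (1.03%), 97 genes (0.689%) and 91 genes (0.646%), and DESeq2 called 1, 0 and 0 genes at an adjusted p under 0.05. With the 1.5-fold limit, 0.756%, 0.519% and 0.426% of all genes were called, and these shares are the background for the count of 0 among 10 genes. These fits carried no block for the replicate number. With it, 1 of the 10 genes (Lepr) was called between H-151 and PBS by the unadjusted threshold with 1.5-fold, where 262 of 14085 genes (1.86%) were, and 0 of the 10 between SR-717 and PBS, where 443 of 14070 genes (3.15%) were. In CPM the groups did not overlap for 5.18%, 3.75% and 3.87% of all genes.

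The median log2 fold change of the 10 genes was 0.11 between SR-717 and H-151, where the median of all genes was 0.02, and 6 of the 10 values were positive. It was -0.14 between SR-717 and PBS (all genes 0.01), with 3 of 10 positive, and -0.14 between H-151 and PBS (all genes -0.02), with only Twist1 positive. Both comparisons with PBS use the same 3 control libraries. The intervals were narrow for some genes and wide for others: for Pdgfrb between SR-717 and PBS the 95% interval of the log2 fold change was -0.41 to 0.33, and for Lepr it was -2.93 to 0.47.

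**Figure D2:**
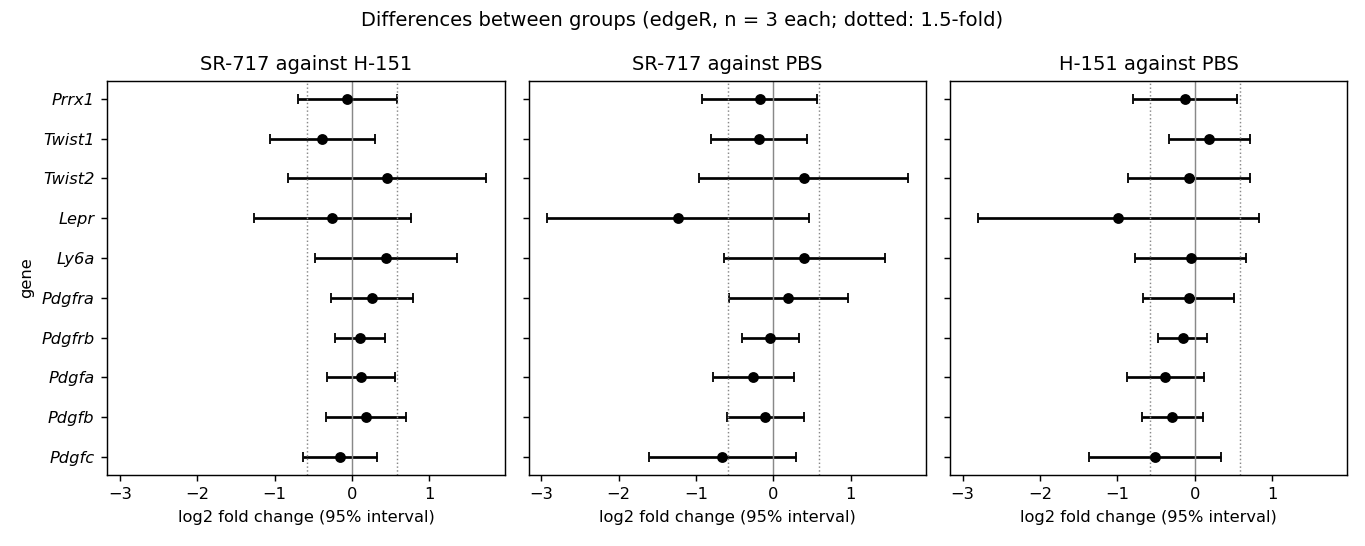
Log2 fold change of each gene (points) with its 95% interval from edgeR (bars) in the 3 comparisons, 3 libraries per group; dotted lines mark a 1.5-fold change. Every interval includes 0, and that of Lepr against PBS is the widest.

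Prrx1, which encodes a homeobox factor of limb and periosteal mesenchyme, had 90.7, 78.4 and 127 CPM in the H-151 libraries (replicates 1 to 3), 126, 69.7 and 127 CPM in PBS and 126, 80.5 and 78.2 CPM in SR-717. Each group contained a library near 126 CPM and one under 81 CPM, and the PBS group alone spanned the range of the whole series. The log2 fold change was -0.06 ± 0.26 (SE) between SR-717 and H-151, -0.18 ± 0.31 between SR-717 and PBS and -0.13 ± 0.29 between H-151 and PBS.

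Twist1, a basic helix-loop-helix factor that restrains osteoblast differentiation, had 24.2, 25.5 and 38.1 CPM in H-151, 27.0, 21.7 and 28.5 CPM in PBS and 15.7, 23.5 and 28.6 CPM in SR-717. The highest library was H-151 replicate 3 and the lowest SR-717 replicate 1. The groups overlapped, and the log2 fold change between SR-717 and H-151 was -0.38 ± 0.28 (95% interval -1.06 to 0.30; adjusted p = 0.996, edgeR). Twist1 was the only one of the 10 genes with a positive log2 fold change between H-151 and PBS, 0.19 ± 0.22, and without H-151 replicate 3 it was -0.05.

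Twist2, the paralog of Twist1 that is active in dermal and osteoblast precursors, was much lower, with 1.86, 2.71 and 1.95 CPM in H-151, 3.14, 1.94 and 1.80 CPM in PBS and 5.53, 1.97 and 1.52 CPM in SR-717. The SR-717 group thus held both the highest and the lowest library of the series. Its log2 fold change between SR-717 and H-151, 0.46 ± 0.53, turned to -0.32 without SR-717 replicate 1. The same library, then, was the highest for Twist2 and the lowest for Twist1.

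**Figure D3:**
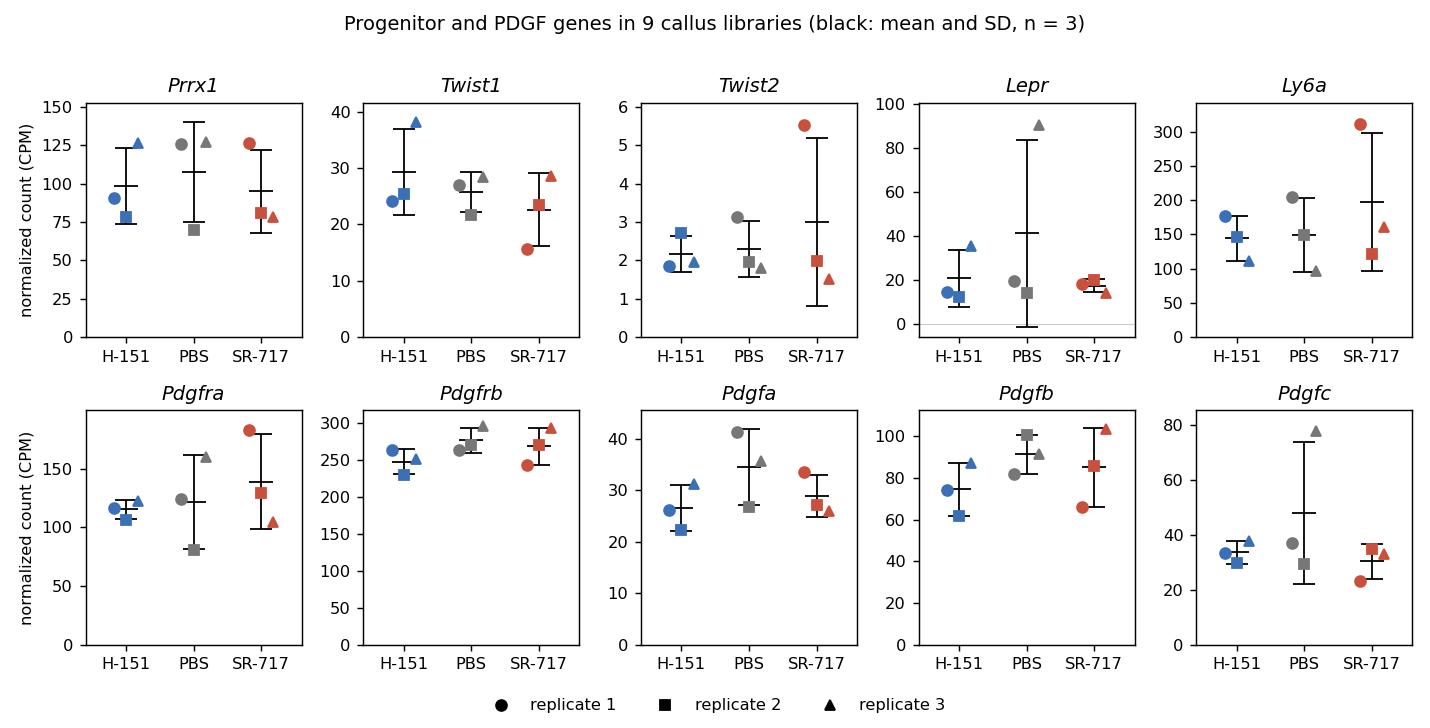
Normalized count (CPM) of the 10 genes in every library, with symbols for the replicate numbers and black bars for the mean ± SD of 3 libraries. The groups overlap in 9 of the genes in all comparisons, and for Pdgfrb the H-151 libraries all lie below the PBS libraries by a margin of 263.1 against 263.8 CPM.

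Lepr, which encodes the leptin receptor and marks perivascular stromal cells of the marrow, had the largest spread of the 10 genes. It had 14.6, 12.4 and 35.6 CPM in H-151, 19.5, 14.2 and 90.4 CPM in PBS and 18.3, 20.0 and 14.4 CPM in SR-717. PBS replicate 3 was 7.28-fold above the lowest library, H-151 replicate 3 was the next highest, and the remaining 7 libraries lay between 12.4 and 20.0 CPM. On the log2 scale the difference was -1.23 ± 0.70 (SE) for SR-717 against PBS and -0.99 ± 0.76 for H-151 against PBS, each with an adjusted p of 1.00 (edgeR). Without PBS replicate 3 these values were 0.06 and 0.31, so both directions rested on that library. Leaving out PBS replicate 2 gave -1.64 for SR-717 against PBS, past the unadjusted threshold with the 1.5-fold limit, and this was the only call among the 10 genes when libraries were left out.

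In H-151 and PBS, replicate 3 was the highest for Lepr within its group, whereas in SR-717 it was the lowest. In both comparisons with PBS, deviations of same-numbered libraries were positively correlated, though only at 0.14 for replicate 3 of SR-717 and PBS. The fit with the replicate number as a block is therefore given beside the fit without it where it changed a call. With the block, Lepr was lower in H-151 than in PBS by the unadjusted threshold (log2 fold change -0.67 ± 0.24, adjusted p = 1, edgeR), and it was lower at each of the 3 numbers, by 0.42, 0.19 and 1.34 on the log2 scale.

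Pdgfc, a PDGFRα ligand, was high in the same library as Lepr. It had 33.4, 29.7 and 37.9 CPM in H-151, 37.0, 29.3 and 77.8 CPM in PBS and 23.2, 34.9 and 33.2 CPM in SR-717. PBS replicate 3 was above all other libraries and SR-717 replicate 1 was the lowest. The log2 fold change was -0.66 ± 0.40 for SR-717 against PBS and -0.51 ± 0.36 for H-151 against PBS, and without PBS replicate 3 it was -0.12 and 0.02. Of 29 further skeletal progenitor genes, 5 had their highest level in SR-717 replicate 1 and 10 their lowest. In PBS replicate 3, 7 had their highest level and 4 their lowest. Among the 7 were Kitl, the stem cell factor gene, at 70.0 CPM against 14.3 to 53.4 CPM elsewhere, and Foxc1, a transcription factor of marrow stromal cells, at 60.5 CPM against 12.7 to 30.6 CPM. The 4 were Dpp4, Dpt, Pdpn and Pi16, with Dpt, a matrix gene, at 44.1 CPM there against 52.2 to 168 CPM elsewhere. Kitl, Foxc1 and Dpt were singled out after their values had been seen. Cxcl12, the chemokine of the same stromal cells, did not stand out there (682 CPM, range 556 to 787 CPM).

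PBS replicate 3 also had the highest osteoblast level, 9.84 mean log2 CPM against 7.81 to 9.50 in the others, the lowest skeletal muscle level, 8.57 against 9.76 to 11.1, and the lowest platelet and megakaryocyte level, -0.17 against 0.63 to 3.32. The summed muscle markers ranged from 5141 to 23823 CPM in PBS, from 14074 to 23975 CPM in H-151 and from 12036 to 30568 CPM in SR-717. The part of tissue composition in the Lepr and Pdgfc values was not tested. In bulk callus, fewer cells of a type and less RNA per cell cannot be told apart.

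Ly6a encodes Sca-1, a surface antigen of skeletal and hematopoietic progenitors and of endothelial cells, and is known to be inducible by interferon. It had 177, 146 and 111 CPM in H-151, 204, 149 and 95.9 CPM in PBS and 312, 121 and 160 CPM in SR-717. Replicate 1 was the highest library of each group, and SR-717 replicate 1 exceeded all others. On the log2 scale the difference was 0.44 ± 0.38 between SR-717 and H-151 and 0.40 ± 0.43 between SR-717 and PBS, with 95% intervals of -0.48 to 1.36 and -0.63 to 1.44. Both turned negative without SR-717 replicate 1, to -0.05 and -0.09. Between H-151 and PBS it was -0.05 ± 0.30.

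The mean log2 CPM of 19 interferon-stimulated genes, none of them a member, was 4.15, 3.23 and 3.39 in H-151, 4.82, 3.89 and 3.06 in PBS and 5.32, 3.68 and 3.27 in SR-717. Replicate 1 was again the highest of each group, and the lowest library was PBS replicate 3, as for Ly6a. The summed level of these 19 genes ranged from 280 to 490 CPM in H-151, from 246 to 714 CPM in PBS and from 298 to 1246 CPM in SR-717, with no gene at 0. Sting1, which encodes STING, the target of both drugs, was one of the 2 genes nearest to Ly6a in profile. It had 48.1, 41.9 and 30.1 CPM in H-151, 58.0, 36.5 and 31.6 CPM in PBS and 89.6, 38.4 and 42.3 CPM in SR-717. Macrophage and neutrophil levels were also highest in SR-717 replicate 1, at 7.10 and 9.29 mean log2 CPM. In these lists, too, replicate 1 was the highest of each group, and PBS replicate 3 was the lowest library, at 5.83 and 4.60. These extreme libraries were thus not particular to interferon-stimulated genes, but the directions between groups differed between the lists. Between H-151 and PBS, 0 of 19 interferon-stimulated genes had a positive log2 fold change, against 44.2% of all genes. There, 8 of 10 neutrophil and 2 of 10 macrophage genes were positive. Between SR-717 and H-151 the counts were 19 of 19, 10 of 10 and 9 of 10, against 53.4% of all genes. The part of interferon and of these cells in the Ly6a values was not tested.

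**Figure D4:**
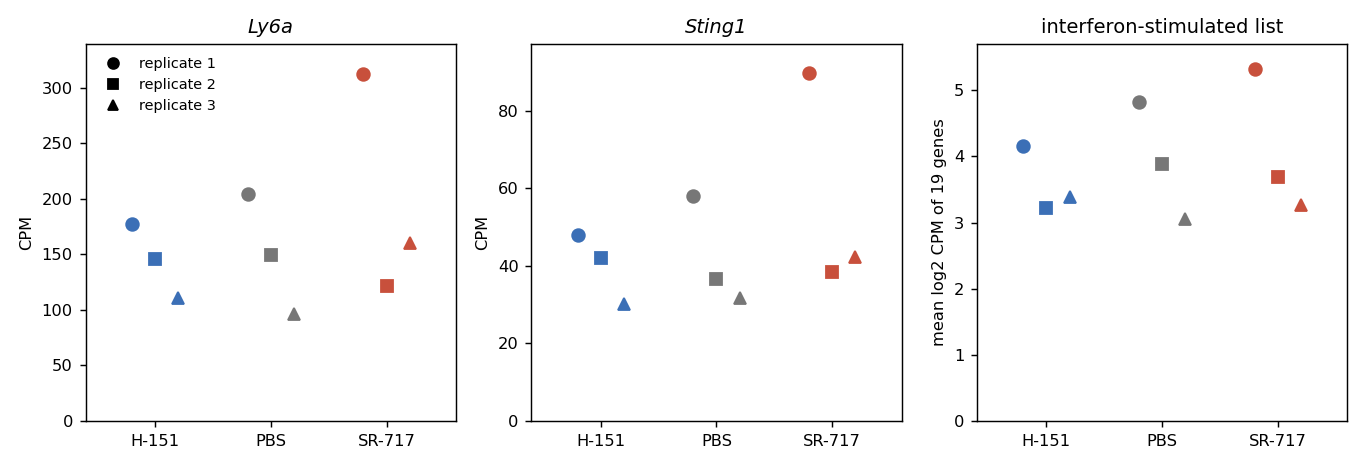
CPM of Ly6a and Sting1, and mean log2 CPM of 19 interferon-stimulated genes, in the 9 libraries with symbols for the replicate numbers. Replicate 1 is the highest library of each group in all 3 plots, and SR-717 replicate 1 is the highest of the series.

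Pdgfra, the receptor found on periosteal and other mesenchymal progenitors, had 116, 107 and 123 CPM in H-151, 124, 80.7 and 160 CPM in PBS and 183, 129 and 104 CPM in SR-717. The H-151 libraries lay close together, with a coefficient of variation of 6.95% against 32.8% in PBS and 29.1% in SR-717. The highest library was SR-717 replicate 1 and the lowest PBS replicate 2. The log2 fold change was 0.26 ± 0.22 between SR-717 and H-151, 0.19 ± 0.32 between SR-717 and PBS and -0.08 ± 0.25 between H-151 and PBS. Without SR-717 replicate 1 the first was 0.01 and the second -0.05.

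Pdgfrb, the receptor of pericytes and many stromal cells (chr18:61045150-61085061, plus strand), was the most even of the 10 genes, with a coefficient of variation of 8.15% over the 9 libraries. It had 263.1, 229 and 251 CPM in H-151, 263.8, 270 and 296 CPM in PBS and 243, 270 and 293 CPM in SR-717. The H-151 libraries did not overlap with PBS, which was the case, in the same direction, for 2.31% of all genes tested, and it was the only one of the 10 genes without overlap in any comparison. On the log2 scale the difference was -0.16 ± 0.13 (95% interval -0.47 to 0.16), and on the TPM scale the groups overlapped (77.0 to 99.9 against 93.0 to 99.1 TPM). The absence of overlap thus depended on the scale, and the difference did not pass the test. It was 0.11 ± 0.13 between SR-717 and H-151 and -0.04 ± 0.15 between SR-717 and PBS, and the 95% intervals, -0.22 to 0.43 and -0.41 to 0.33, exclude a change of 1.5-fold in either direction. The 10 pericyte markers, of which none was at 0, had their lowest levels in SR-717 replicate 1 and PBS replicate 1 (5.35 and 5.58 mean log2 CPM, against 5.93 to 6.12 elsewhere).

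The ratio of Pdgfra to Pdgfrb, taken within a library on the TPM scale, was 0.398, 0.404 and 0.418 in H-151, 0.400, 0.269 and 0.463 in PBS and 0.640, 0.422 and 0.295 in SR-717. Pdgfrb exceeded Pdgfra in every library. The mean log2 ratio in SR-717 was 0.08 above that in H-151 and 0.23 above that in PBS, with exact permutation p-values of 0.7 and 0.5, and the difference between H-151 and PBS was 0.15 (exact permutation p = 0.8). After adjustment over 6 ratio tests all p-values were 0.96 or 1, by exact permutation in both directions, which at this size cannot give a p under 0.1.

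Pdgfa, whose product forms PDGF-AA, had 26.3, 22.2 and 31.2 CPM in H-151, 41.4, 26.7 and 35.7 CPM in PBS and 33.7, 27.2 and 25.9 CPM in SR-717. The highest library was PBS replicate 1 and the lowest H-151 replicate 2. The log2 fold change was -0.38 ± 0.21 (95% interval -0.88 to 0.12) for H-151 against PBS, -0.26 ± 0.22 for SR-717 against PBS and 0.11 ± 0.18 between the drugs. At each of the 3 replicate numbers Pdgfa was lower in H-151 than in PBS, by 0.65, 0.26 and 0.19 on the log2 scale. With the replicate block the log2 fold change was -0.37 ± 0.14 (adjusted p = 1, edgeR), which passed an unadjusted p of 0.05 but was below 1.5-fold.

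Pdgfb, whose product PDGF-BB is made by endothelial cells, platelets and preosteoclasts, had 74.2, 61.8 and 87.3 CPM in H-151, 81.8, 100.4 and 91.7 CPM in PBS and 65.8, 85.8 and 103 CPM in SR-717. The lowest library was H-151 replicate 2 and the highest SR-717 replicate 3, and all groups overlapped. On the log2 scale the difference was -0.29 ± 0.17 for H-151 against PBS, with H-151 lower at each of the 3 replicate numbers. It was -0.10 ± 0.21 for SR-717 against PBS and 0.18 ± 0.21 between SR-717 and H-151. The 10 endothelial markers varied little over the libraries (6.20 to 6.47 mean log2 CPM), whereas the 10 platelet and megakaryocyte markers varied from -0.17 to 3.32.

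H-151 was also below PBS at each of the 3 numbers for Pdgfrb, so 4 of the 10 genes (Lepr, Pdgfrb, Pdgfa and Pdgfb) had this pattern, as did 11.5% of all genes tested, and 0 of 10 were higher at all 3, against 10.1% of all genes. Of these, only Lepr passed the unadjusted threshold with the 1.5-fold limit in the fit with the replicate block, which called 1.86% of all genes. Between SR-717 and PBS, 0 of the 10 genes differed in the same direction at all 3 numbers, while 12.4% of all genes were lower and 11% higher at all 3.

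Of the summed TPM of the 4 PDGF ligand genes, Pdgfb made up 47.6% on average (range 39.0% to 56.5%), Pdgfa 27.2% (22.4% to 34.9%), Pdgfc 19.7% (13.5% to 31.8%) and Pdgfd, the remaining ligand gene, 5.58% (3.90% to 14.0%). Pdgfb was the leading ligand transcript in each library. Its share in H-151 was nearly constant, 47.8% to 48.2%, and ranged from 39.0% to 56.5% in PBS. The share of Pdgfc was highest in PBS replicate 3, and that of Pdgfd in SR-717 replicate 1.

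The ratio of Pdgfa to Pdgfb on the TPM scale was 0.563, 0.553 and 0.573 in H-151, 0.826, 0.425 and 0.613 in PBS and 0.827, 0.497 and 0.401 in SR-717. In both PBS and SR-717, replicate 1 had the highest ratio, and the H-151 libraries lay within the range of the other groups. The mean log2 ratio differed by -0.04 between SR-717 and H-151, by -0.13 between SR-717 and PBS and by -0.09 between H-151 and PBS, with exact permutation p-values of 1, 0.8 and 0.7.

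Of 30 further genes of PDGF signaling, from ligand processing to adaptors, phosphatases and targets, 0 were called in any of the 3 comparisons, and all 30 passed the filter. Their median log2 fold change was 0.11 between SR-717 and H-151 (21 of 30 positive, against 53.4% of all genes), 0.01 between SR-717 and PBS (15 of 30, against 52.2%) and -0.07 between H-151 and PBS (7 of 30, against 44.2%). The extremes were Rasa1, a GTPase-activating protein that binds activated PDGFRβ, with 1.01 ± 0.68 between SR-717 and H-151 and -0.99 ± 0.53 between H-151 and PBS. Rasa1 had 92.3 CPM in SR-717 replicate 1 and 79.7 CPM in PBS replicate 3, and 15.8 to 27.9 CPM in the remaining libraries. Without SR-717 replicate 1 the first value was -0.21, and without PBS replicate 3 the second was -0.13. The mean log2 CPM of the 30 genes was likewise highest in SR-717 replicate 1, at 6.58. It was 6.06 and 6.07 in SR-717 replicates 2 and 3, below the H-151 libraries (6.09 to 6.14). The positive values between SR-717 and H-151 were thus not a rise shared by the SR-717 libraries. The adaptor gene Nck1 had 18.05, 13.7 and 26.1 CPM in H-151 and 32.9, 15.6 and 42.3 CPM in PBS, with a log2 fold change of -0.65 ± 0.40 that was -0.33 without PBS replicate 3. With the replicate block it was -0.59 ± 0.17 (adjusted p = 1, edgeR), past the unadjusted threshold, so 1 of 30 genes was called in a fit that called 1.86% of all genes. Rasa1 and Nck1 were named after their values had been seen.

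Of 29 further skeletal progenitor genes, 28 passed the filter in each comparison, and 0, 0 and 1 were called between SR-717 and H-151, SR-717 and PBS, and H-151 and PBS. The median log2 fold changes were 0.00, -0.08 and -0.08. The gene called was Dpp4, a marker of fibroblast-like progenitors, at 3.53, 4.09 and 3.22 CPM in H-151 against 2.40, 2.16 and 1.46 CPM in PBS. All H-151 libraries were above the PBS libraries, and the log2 fold change was 0.85 ± 0.28 (adjusted p = 1.00, edgeR). With 60 of 14085 genes (0.426%) called in that comparison, this is the background for 1 of 28 genes.

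With the replicate block, 2 of 28 genes passed the unadjusted threshold with 1.5-fold between H-151 and PBS, where 1.86% of all genes did: Dpp4 and Dpt. Dpt was at 0.64 ± 0.16 with the block and 0.60 ± 0.38 without it, and without H-151 replicate 2 the latter was 0.28. Between SR-717 and PBS, 3 of 28 genes passed with the block, where 3.15% of all genes did: Sox9 (-0.95 ± 0.23), the master factor of cartilage, the hedgehog target Gli1 (-0.78 ± 0.26) and Dpp4 (0.70 ± 0.26), all with an adjusted p of 0.999 (edgeR). Without the block these values were -0.86 ± 0.39, -0.57 ± 0.77 and 0.69 ± 0.32, and 0 of the 3 genes passed. Leaving out SR-717 replicate 1 from the fit without the block gave -0.53 for Sox9, -0.08 for Gli1 and 0.64 for Dpp4. Gli1 had 3.98, 24.3 and 28.4 CPM in SR-717 against 10.7, 36.6 and 37.2 CPM in PBS. Sox9 had 8.06, 20.4 and 20.1 CPM in SR-717 against 22.4, 33.4 and 32.3 CPM in PBS. The 10 chondrocyte markers, of which Sox9 itself is one, had a median log2 fold change of -0.98 in the same comparison, with none called. Their summed level ranged from 533 to 9570 CPM in SR-717 and from 1968 to 16976 CPM in PBS, with no gene at 0. The part of cartilage content in the Sox9 and Gli1 values was not tested.

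The profiles of the 10 genes over the 9 libraries, each centered on its own mean, differed in which library was highest or lowest. SR-717 replicate 1 was the highest library for 3 of the 10 genes (Twist2, Ly6a and Pdgfra) and the lowest for 2 (Twist1 and Pdgfc), PBS replicate 3 was the highest for 4 and the lowest for 1, and H-151 replicate 2 was the lowest for 4. The smallest root mean square difference among the 10, in log2 CPM over 9 libraries, was 0.16, between Pdgfb and Pdgfrb. Prrx1 and Pdgfa followed with 0.19. The value of 0.16 exceeded the SD of Pdgfrb itself, 0.12, while the SD of Pdgfb was 0.26. Genes that vary little lie close, so this distance cannot decide whether the 2 genes share a pattern. Both were lowest in H-151 replicate 2 (-0.20 for Pdgfrb and -0.41 for Pdgfb). Their signs differed in H-151 replicate 3 (-0.07 and 0.08) and, close to the mean, in PBS replicate 1. Among 13519 genes, Pdgfb ranked 1813 in closeness to Pdgfrb, and Pdgfrb ranked 126 in closeness to Pdgfb. Pdgfra was nearest to Prrx1 (0.23), Ly6a and Twist2 were nearest to each other (0.33), and the paralogs Twist1 and Twist2 were not nearest to each other. These distances are descriptions over libraries that share groups and depth.

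**Figure D5:**
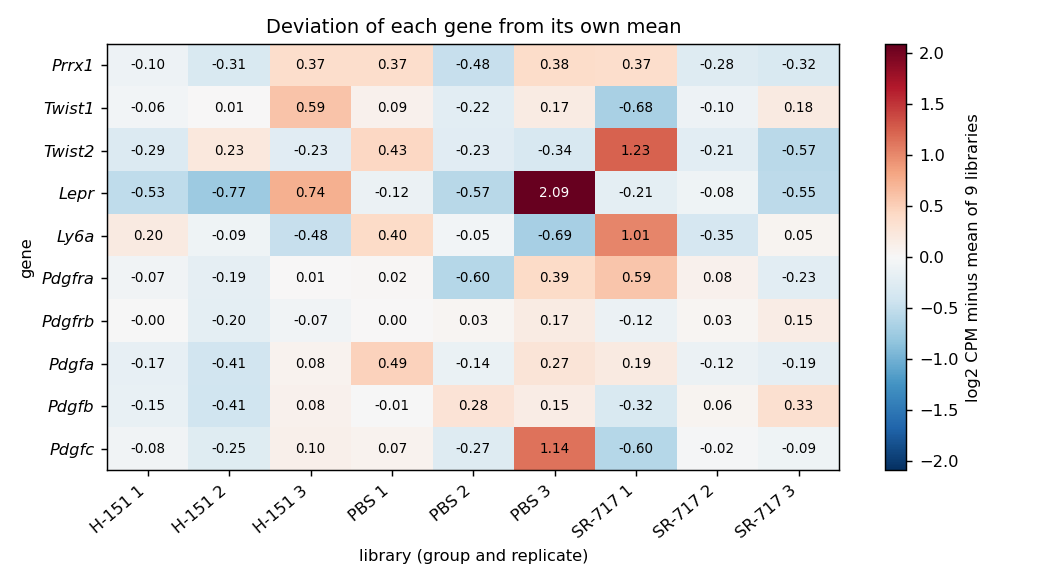
Log2 CPM of each gene minus its mean over the 9 libraries (rows: genes; columns: libraries by group and replicate; red above and blue below the mean). The largest deviation is Lepr in PBS replicate 3, 2.09, followed by Twist2 in SR-717 replicate 1, 1.23.

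Among 13519 genes with a mean of at least 1 CPM, the closest profile to Pdgfrb was that of Ano6 (root mean square difference 0.04 in log2 CPM over 9 libraries), followed by Stk11ip. The nearest 2 were Nckap1 and Taok1 for Prrx1, Smim26 and Intu for Twist1, and Slc35a5 and Usp25 for Twist2. For the receptors and markers they were Ranbp9 and G3bp2 for Pdgfra, Lonrf1 and Sting1 for Ly6a, and Reps2 and Septin2 for Lepr. Lepr had the least close match, with a difference of 0.24 to Reps2, which had 38.2 CPM in PBS replicate 3 and 6.87 to 15.5 CPM in the others. For the ligands they were Rabep1 and Serpind1 for Pdgfa, Glb1 and Matk for Pdgfb, and Zfp560 and Peg10 for Pdgfc.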

How the data were processed

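Callus RNA of 9 libraries was analysed, grouped by the labels. The authors deposited expected counts, which are estimated counts that need not be whole (8.91% were not), and TPM values, computed by the authors per transcript length and library total. The submitters' processing notes name the mm10 build, and the aligner and counting program are not given in the sources used here. Expected counts were rounded, filtered with filterByExpr (a count of 10, a total of 15), scaled by TMM and tested by glmQLFit and glmQLFTest of edgeR 4.0.16 (R 4.3.3) on the 6 libraries of each comparison, with Benjamini-Hochberg adjustment over all genes tested. SEs were derived from the F statistic. CPM used TMM factors over 9 libraries, with a prior count of 2 for log2 values. DESeq2 1.42.0, other filters, 1 fit of all libraries, a 2-fold limit, the replicate block (the main fits had none) and leaving out libraries were alternatives. Scripts were tested on simulated data.

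The 10 genes, the further gene lists and the marker lists were chosen with earlier results of these data known. Genes outside the 10 were named where they passed an unadjusted p of 0.05 with 1.5-fold (up to 5 per list), or were the 2 nearest profiles of a member. Others are said to have been chosen after their values were seen, as were Dpt, Sox9 and Gli1. Same-numbered libraries deviated together in both comparisons with PBS (correlations of their deviations from the group means of 0.65, 0.34 and 0.14 for SR-717, and 0.30, 0.49 and 0.50 for H-151), but not all above 0.1 between SR-717 and H-151 (0.34, 0.06 and 0.08). SR-717 replicate 3 correlated more with PBS replicate 2 than with PBS replicate 3, so the block may not pair these libraries correctly. No label explains the numbers. The depth of 16987400 to 23272500 counts per library covers counting error only, and replicate libraries differed by far more than sampling noise. The keratinocyte, T cell and adipocyte marker lists had levels of -1.52 to 0.41, 0.47 to 2.18 and 1.41 to 3.46 mean log2 CPM.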

Additional observations from a re-analysis of the deposited data

How the results depend on the processing

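Under DESeq2 size factors, DESeq2's Wald test, no filter, a mean count of at least 50, 1 fit of all 9 libraries and the replicate block, 0 of the log2 fold changes of the 10 genes changed direction. Twist2 in H-151 against PBS fell under the mean count of 50 and has no value there. The TPM ratios kept their direction with a pseudocount of 1, with CPM and with the block. Members called became 1 (Lepr) in H-151 against PBS under the replicate block and 0 to 1 in SR-717 against PBS when libraries were left out, the 1 being without PBS replicate 2. PDGF signaling genes called in H-151 against PBS were 1 under the block and 0 to 3 when libraries were left out (3 without PBS replicate 2: Rasa1, Pik3ca and Nck1), and 0 to 1 in SR-717 against PBS. Skeletal progenitor genes called in SR-717 against PBS were 1 by DESeq2 (Sox9), 1 with all 9 libraries (Dpp4), 3 under the block and 0 to 1 when libraries were left out. In H-151 against PBS they were 2 under the block, 0 at a 2-fold limit and 0 to 2 when libraries were left out, and in SR-717 against H-151 0 to 1. In SR-717 against H-151, where same-numbered libraries correlated at 0.34, 0.06 and 0.08, the block changed no call.

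Leaving out 1 library changed the direction of 28 of 180 log2 fold changes. In SR-717 against H-151 the ranges were -0.32 to 0.15 for Prrx1, -0.32 to 0.77 for Twist2, -0.52 to 0.37 for Lepr, -0.050 to 0.70 for Ly6a, -0.0077 to 0.24 for Pdgfa and -0.27 to 0.0088 for Pdgfc, and for Rasa1, no member, -0.21 to 1.41. In SR-717 against PBS they were -0.39 to 0.022 for Twist1, -0.39 to 0.71 for Twist2, -1.64 to 0.061 for Lepr, -0.093 to 0.69 for Ly6a, -0.055 to 0.44 for Pdgfra, -0.11 to 0.030 for Pdgfrb and -0.27 to 0.056 for Pdgfb. In H-151 against PBS they were -0.35 to 0.015 for Prrx1, -0.048 to 0.31 for Twist1, -0.27 to 0.22 for Twist2, -1.61 to 0.31 for Lepr, -0.29 to 0.25 for Ly6a, -0.29 to 0.17 for Pdgfra and -0.76 to 0.023 for Pdgfc. The log2 ratio of Pdgfra to Pdgfrb ranged from -0.20 to 0.35, -0.059 to 0.50 and -0.080 to 0.31, and that of Pdgfa to Pdgfb from -0.33 to 0.19, -0.43 to 0.10 and -0.34 to 0.14. The causes were not tested.

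All genes past the unadjusted threshold with 1.5-fold numbered 107 between SR-717 and H-151, against 209 by DESeq2, 223 without a filter, 61 with a mean count of 50, 171 with all 9 libraries and 64 to 661 with libraries left out. They numbered 73 between SR-717 and PBS, against 138, 194, 37 and 176, 443 under the block and 95 to 319. They numbered 60 between H-151 and PBS, against 127 without a filter, 28 with a mean count of 50, 262 under the block and 43 to 698.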
